A study of Mus musculus with 8 samples.

Results

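The genes described here were chosen by symbol to cover the nuclear subunits of respiratory complexes II, III, IV and V. They were the rows of the deposited expression table whose symbol is Sdha, Sdhb, Sdhc or Sdhd, is Cyc1, starts with Uqcr, starts with Cox and a digit from 4 to 8, or starts with Atp5. No pseudogene row marked -ps matched. Usmg5, a complex V subunit gene with normalized counts of 1031 to 1342, is not reached by these symbols. Atp5s, which RefSeq names Dmac2l, is taken in by them. The rule found 48 of the 24972 genes in the table, of which 4 belong to complex II, 9 to complex III, 18 to complex IV and 17 to complex V. A mean normalized count of at least 10 over all libraries was needed for testing, and 42 members reached it. The other 6 were Cox4i2, Cox6a2 and Cox7a1, with means from 8.24 to 9.43, and Cox7b2, Cox8b and Cox8c, which were listed at 0 in every library. The highest mean left out was 9.43 (Cox4i2) and the lowest mean tested was 99.1 (Cox6b2).

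RNA was sequenced from mouse embryonic fibroblasts, primary cultures grown out of minced embryos, taken at embryonic day 14, passaged 2 times and left untreated. The 4 genotypes were wild type (WT), Tfam+/- with 1 Tfam allele, Zbp1-/- with no Zbp1, and Tfam+/-Zbp1-/- with both changes, each with 2 libraries. Strain and sex, and whether a genotype's 2 libraries stem from different embryos, were not stated by the labels. The p-values therefore measure the spread between these libraries, which may be technical. The comparisons share libraries: WT stands in 3 of them and each of the other genotypes in several.

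The respiratory chain passes electrons from nutrients to oxygen and uses the energy to pump protons across the inner mitochondrial membrane. Complex II (succinate dehydrogenase) feeds electrons from the citric acid cycle, complex III hands them to cytochrome c, complex IV (cytochrome c oxidase) gives them to oxygen, and complex V (ATP synthase) lets the protons back to make ATP. Complex II is encoded wholly in the nucleus. Complexes III, IV and V instead join nuclear subunits to subunits encoded by mitochondrial DNA, which TFAM packages and helps to transcribe. ZBP1 is a sensor of left-handed nucleic acids.

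Tfam itself had normalized counts of 628.7 and 610.1 (WT), 277.8 and 364.7 (Tfam+/-), 675 and 470.9 (Zbp1-/-) and 423.8 and 374.6 (Tfam+/-Zbp1-/-), so that all 4 libraries with 1 allele were below the other 4. Zbp1 was at 7.34 and 3.19 (WT), 64.6 and 69.8 (Tfam+/-), 3.79 and 1.03 (Zbp1-/-) and 0.862 and 2.69 (Tfam+/-Zbp1-/-), so its loss shows against Tfam+/- and hardly against WT. Library totals were 16752835 to 18303036 normalized counts. All 9 fibroblast markers were tested and summed to 333960 to 550400, with Col1a1 the highest. Leukocyte markers summed to 4568 to 5846 in the 4 libraries with Zbp1 and to 2363 to 2981 in the 4 without, all 10 being tested and none at 0 throughout. Bulk RNA cannot tell fewer cells of a kind from less RNA per cell.

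Promoter windows were looked at first, since nuclear respiratory genes are known targets of a few shared transcription factors. RefSeq (GRCm38.p6) windows of 250 bases before to 50 after the start were on hand for 34 of the 48 members, in 37 windows. The letters searched, on both strands, were CATGCGC, the core of the NRF1 motif, CCGGAAG for ETS factors such as GABPA, AAGATGGC for YY1 and TCAAGGTCA for estrogen-related receptors. The NRF1 core was in 21.6% of member windows, 6.7% of windows of all tested genes and 3.9% of all windows. These shares were, in the same order, for the ETS word 32.4%, 16.8% and 8.9%, for the YY1 word 5.4%, 4.2% and 2.7%, and for the estrogen-related receptor word 5.4%, 0.3% and 0.4%. No word contains another, but the NRF1 core can match both strands at overlapping bases. These shares cover all 300 bases of a window. A match is a string of letters and no shown binding site. The 250 upstream bases of 5 members are given 5′ to 3′ on the gene's strand, with matched words in capitals. Cox6b1 and Cox6b2 are the ubiquitous and a low form of subunit 6b, the latter at levels that differed between genotypes. Cox6a1 has both an NRF1 and an ETS word, and Atp5g2 and Atp5g3 encode the same mature c subunit.
Cox6b1 (chr7:30626115-30626364, minus strand): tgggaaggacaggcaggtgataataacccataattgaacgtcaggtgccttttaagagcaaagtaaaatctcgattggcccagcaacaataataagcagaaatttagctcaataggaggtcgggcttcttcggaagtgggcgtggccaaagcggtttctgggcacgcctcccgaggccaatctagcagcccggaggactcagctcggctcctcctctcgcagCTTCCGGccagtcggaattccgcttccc
Cox6b2 (chr7:4753095-4753344, minus strand): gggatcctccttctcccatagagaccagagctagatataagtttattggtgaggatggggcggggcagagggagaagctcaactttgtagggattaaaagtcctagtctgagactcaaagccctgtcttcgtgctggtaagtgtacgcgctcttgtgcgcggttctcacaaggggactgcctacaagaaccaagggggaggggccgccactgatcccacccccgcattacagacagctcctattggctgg
Cox6a1 (chr5:115348959-115349208, minus strand): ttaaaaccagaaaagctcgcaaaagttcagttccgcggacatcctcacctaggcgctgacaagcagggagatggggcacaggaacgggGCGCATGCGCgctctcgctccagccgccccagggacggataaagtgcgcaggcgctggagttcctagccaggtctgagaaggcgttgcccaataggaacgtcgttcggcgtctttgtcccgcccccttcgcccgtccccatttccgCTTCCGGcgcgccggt
Atp5g2 (chr15:102671048-102671297, minus strand): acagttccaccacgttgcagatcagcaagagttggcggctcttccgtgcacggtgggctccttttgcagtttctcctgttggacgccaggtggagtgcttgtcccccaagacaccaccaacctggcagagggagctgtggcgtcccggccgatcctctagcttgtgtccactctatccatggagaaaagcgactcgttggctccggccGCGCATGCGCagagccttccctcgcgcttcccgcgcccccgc
Atp5g3 (chr2:73911327-73911576, minus strand): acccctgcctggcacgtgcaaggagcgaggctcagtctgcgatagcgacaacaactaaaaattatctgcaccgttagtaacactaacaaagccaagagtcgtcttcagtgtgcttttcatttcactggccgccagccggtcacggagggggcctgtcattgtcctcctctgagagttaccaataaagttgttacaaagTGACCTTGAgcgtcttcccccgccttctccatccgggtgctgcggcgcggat
Cox6b1 held an ETS word starting 28 bases before the start, and none of the words searched was in the 250 bases of Cox6b2. Cox6a1 held the NRF1 core on both strands, starting at -162 and -159, and the ETS word at -16. Atp5g2 also held it on both strands, at -42 and -39, whereas Atp5g3 held the estrogen-related receptor word at -52.

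Levels per kilobase of transcript were highest for a gene of complex V. Atp5b, the catalytic beta subunit of ATP synthase, had the highest mean at 9670 normalized counts per kb, followed by Cox4i1 at 5378, Atp5l at 4621 and Atp5a1, the alpha subunit, at 4437. In complex III the hinge protein gene Uqcrh led with 3435, and Uqcrq was lowest with 812. In complex II, Sdhd (1480), Sdhb (1444) and Sdha (1335) lay close together and Sdhc, a membrane anchor, stood at 512.5, although its chosen transcript of 3171 bases is the longest among tested members and the value depends on that choice. Outside this main band lay Cox6b2 at 169.5, Atp5s, a coupling factor, at 91.7, and the untested Cox7a1, Cox6a2 and Cox4i2 at 21.0, 13.6 and 13.0.

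**Figure D1:**
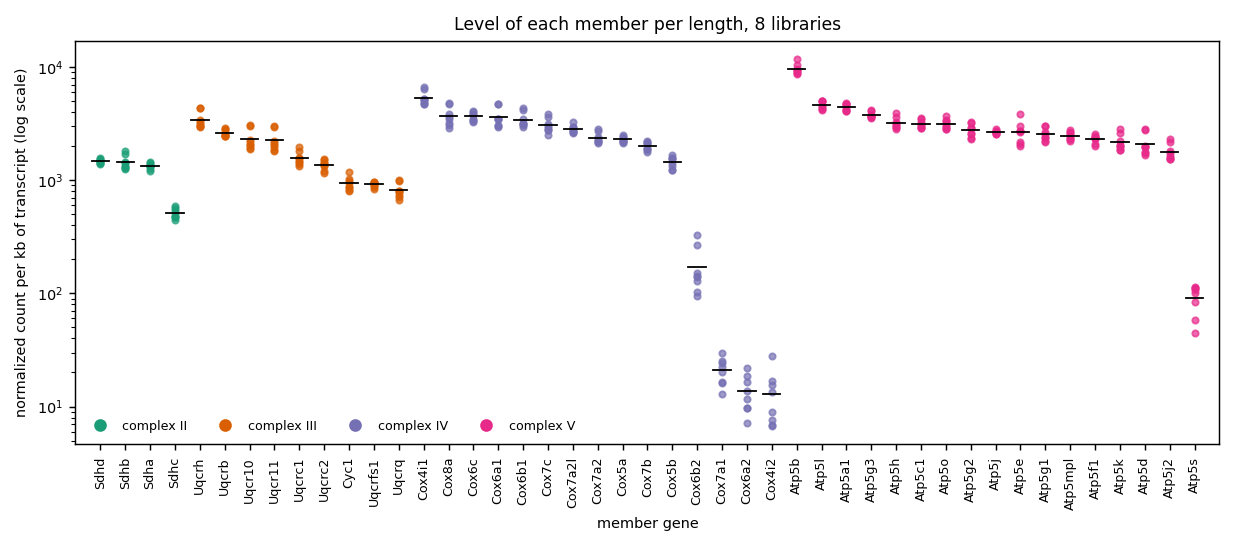
Normalized count per kb of transcript (log axis) for the 45 members above 0, grouped and coloured by complex; each point is 1 of 8 libraries and each line the mean. Atp5b is highest at a mean of 9670, and Cox6b2, Atp5s, Cox7a1, Cox6a2 and Cox4i2 sit well below the rest.

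Transcript shares of the alternative forms were compared within each family, and such shares do not measure protein. Cox4i1 made up 99.6% to 99.9% of the Cox4i signal per kb over the 8 libraries, the remainder being the lung form Cox4i2. Cox6a1 made up 99.4% to 99.8% of its family, with the striated-muscle form Cox6a2 as the rest. Cox7a1, another striated-muscle form, held 0.252% to 0.611%, while Cox7a2 held 42.2% to 48.8% and Cox7a2l, a factor that joins complexes III and IV, held 50.8% to 57.5%. Since Cox7a2l is counted in this total by its name, these are not shares of the subunit's forms alone. Cox8b, Cox8c and Cox7b2, forms of muscle and testis, were listed at 0, which leaves Cox8a and Cox7b. The c subunit of ATP synthase was divided over 3 genes, with 26.3% to 30.8% from Atp5g1, 27.9% to 33.3% from Atp5g2 and 36.2% to 45.2% from Atp5g3. Its lowest Atp5g3 shares, 36.8% and 36.2%, fell in Tfam+/- replicate 1 and Zbp1-/- replicate 2. The longest stretch of identical bases between any pair of forms in a family was 21 (Atp5g1 and Atp5g2), and the share taken up by ambiguous reads was not tested.

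Those same 2 libraries stood apart throughout. The median log2 level of the 42 tested members was 10.67 and 10.71 (WT), 10.98 and 10.69 (Tfam+/-), 10.75 and 11.06 (Zbp1-/-) and 10.88 and 10.87 (Tfam+/-Zbp1-/-). Tfam+/- replicate 1 and Zbp1-/- replicate 2 were the highest of the 8, and each was further from its own replicate than WT was from Tfam+/-Zbp1-/-. Fitted as 1 shared term, the shift of these 2 libraries had a median of 0.30 (log2) over the members, with 33 of 42 above 0, against a median of 0.01 and 50.4% above 0 over all genes. It ranged from -0.91 (Atp5s) to 0.61 (Uqcr10, a small subunit of complex III). Atp5d, the delta subunit of ATP synthase, shows it plainly: its normalized counts were 1547 and 1611 (WT), 2660 and 1654 (Tfam+/-), 1824 and 2612 (Zbp1-/-) and 1839 and 1879 (Tfam+/-Zbp1-/-). Atp5s moved the other way, with 150.8 and 169.6, 86.3 and 123.5, 165.2 and 65.8, and 167.1 and 160.5 in the same order.

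**Figure D2:**
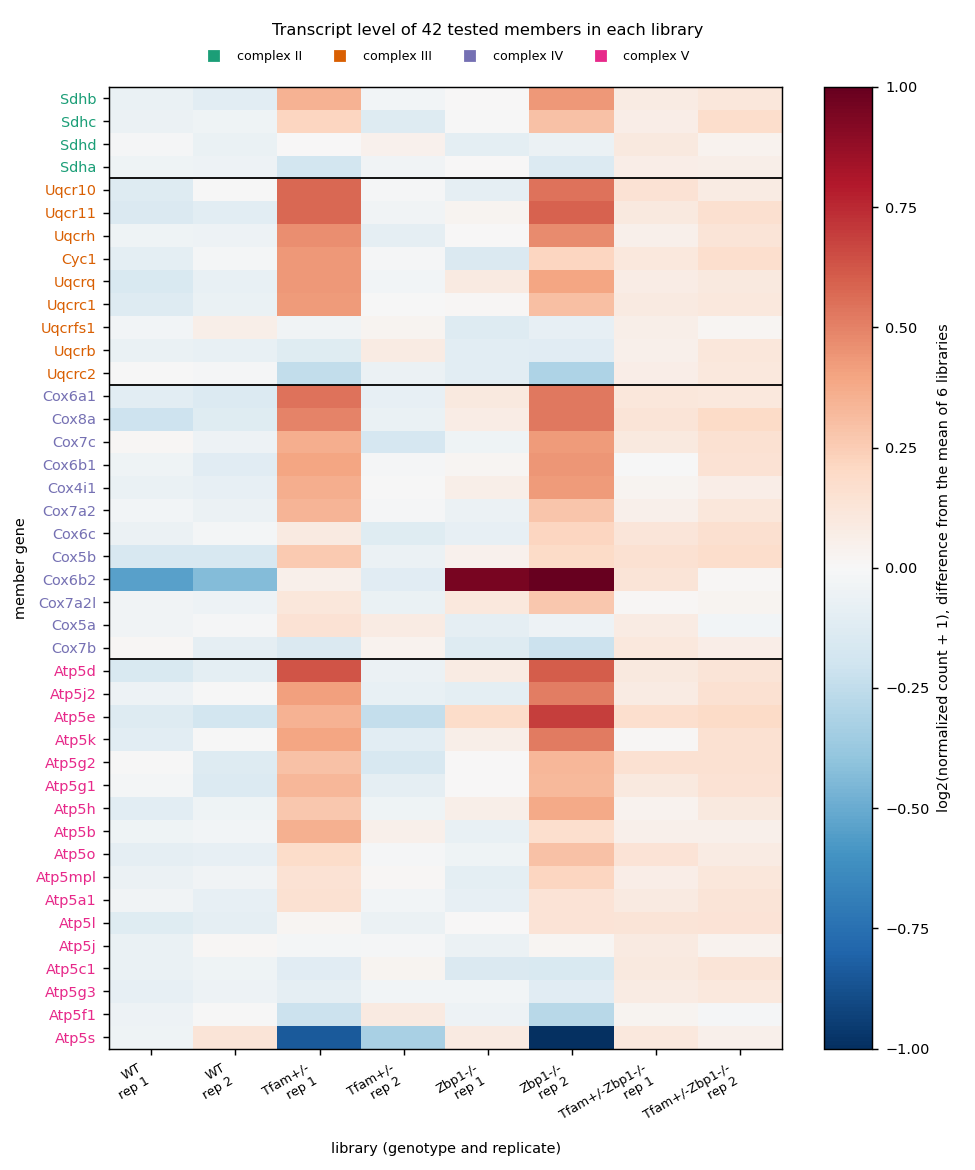
Rows are the 42 tested members grouped by complex, columns the 8 libraries, and colour the log2(normalized count + 1) as a difference from the mean of the 6 libraries other than Tfam+/- replicate 1 and Zbp1-/- replicate 2, with colour capped at 1 in either direction. Those 2 columns are warm for most members and share their pattern, with Atp5s cold in both, and Cox6b2 is warm in both Zbp1-/- columns.

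The size of the shift followed the base composition of the transcript. Across the 42 members Pearson's r with transcript GC content was 0.70, and across all genes with a transcript it was 0.78. Median GC content was nearly equal, 50.5% in the members and 50.3% in all genes, while their median shifts were 0.30 and 0.01. Atp5s had the lowest GC content of the tested members, 39.0%, and Atp5d the highest, 61.1%. With log2 transcript length r was -0.41 over the members and -0.32 over all genes, and members of up to 1000 bases had a median shift of 0.37 (26 genes) beside 0.31 for 641 other genes that short. These correlations are across genes of the same libraries, which are not independent replicates. No label names a batch for these libraries, and what produced the shift was not tested.

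**Figure D3:**
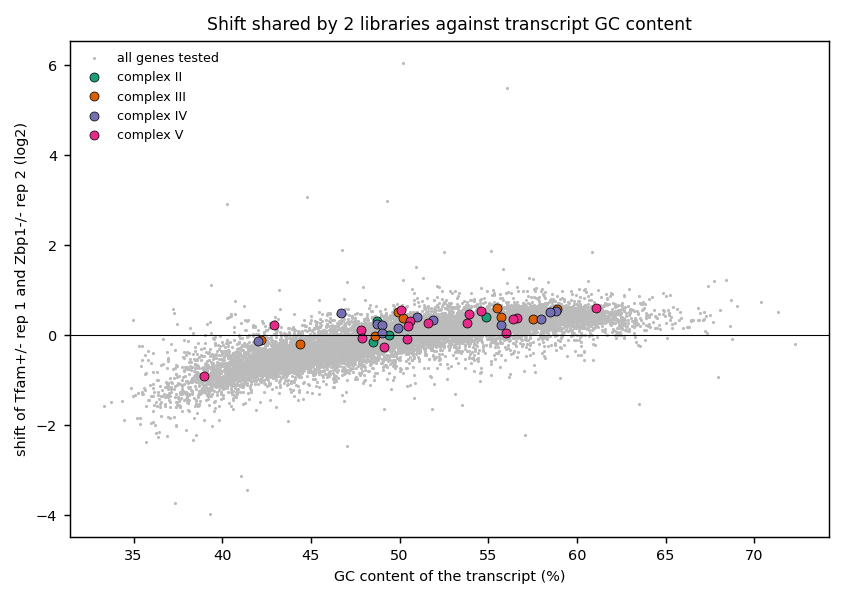
Shift shared by Tfam+/- replicate 1 and Zbp1-/- replicate 2 (log2, vertical) against GC content of the transcript (percent, horizontal), with all tested genes in grey and members coloured by complex. The members' shift rises with GC content as in the other genes, from Atp5s at -0.91 to Uqcr10 at 0.61. Its median is 0.30 against 0.01 for all genes, at median GC contents of 50.5% and 50.3%.

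Comparisons were therefore made with limma in a pair of ways: over all 8 libraries with no further term, which is the primary fit, and with a term for the shift. The second fit takes the shift as equal in both libraries, and it gives much smaller errors, the median standard error of the members falling from 0.11 to 0.03 in the averaged comparisons. Those averages set the 4 libraries of 1 state against the 4 of the other, so that a shift carried by 1 library on each side cancels in the estimate. A gene counted as called when its p, adjusted by Benjamini-Hochberg over 13267 genes, was under 0.05, and differences are on the scale of log2(normalized count + 1).

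Averaged over both Zbp1 states, 38 of 42 members lay above 0 where 1 Tfam allele was missing, at a median of 0.07 against 0.00 for all genes and a range from -0.28 (Cox6b2) to 0.18 (Cyc1). In the primary fit this median was 0.00 without Tfam+/- replicate 1 or without Zbp1-/- replicate 1, 0.12 without Tfam+/- replicate 2 and 0.14 without Zbp1-/- replicate 2. Dropping any of these libraries leaves the shift uneven between the sides, so these medians also carry part of it. The same holds for single members where such values are given below. In the primary fit 0 members were called and 1 had an unadjusted p under 0.05, where 0.626% of all genes were called. In the fit with the shift term, 20 members were called higher and 0 lower, while 13.7% of all genes were called higher and 11.9% lower. Of the 9 fibroblast markers 8 were below 0 in this average, at a median of -0.25, and all 8 were called lower with the term; their part in the result was not tested. The called genes were spread over the complexes, with 1 of 4 in complex II, 6 of 9 in complex III, 5 of 12 tested in complex IV and 8 of 17 in complex V.

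In complex II, Sdhd, which anchors the enzyme in the membrane, had normalized counts of 1817 and 1748 (WT), 1837 and 1879 (Tfam+/-), 1710 and 1757 (Zbp1-/-) and 1954 and 1875 (Tfam+/-Zbp1-/-). All 4 libraries with 1 Tfam allele were above the other 4, and the average difference was 0.10 ± 0.03 (SE; adjusted p 0.012 with the shift term, 0.92 without). Sdha, the flavoprotein that oxidises succinate, stood at 3860 and 3837, 3495 and 3879, 3978 and 3610, and 4163 and 4148 in the same order of genotypes. Its groups overlapped, with a difference of 0.03 ± 0.02 (adjusted p 0.23). The iron-sulfur subunit Sdhb (0.06 ± 0.03, adjusted p 0.13) and the anchor Sdhc (0.03 ± 0.03, adjusted p 0.44) were not called either. Without the term, the 95% intervals ran from -0.24 to 0.36 for Sdhb and from -0.23 to 0.30 for Sdhc, so differences of that size in either direction could not be seen.

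Complex III held the largest rise. Cyc1 encodes cytochrome c1, the subunit that hands electrons to cytochrome c. Its normalized counts were 1254 and 1322 (WT), 1809 and 1334 (Tfam+/-), 1214 and 1559 (Zbp1-/-) and 1443 and 1503 (Tfam+/-Zbp1-/-). Both libraries of each Tfam+/- genotype were above both WT libraries, whereas Zbp1-/- replicate 2, a shifted library, was above all but Tfam+/- replicate 1. The average difference was 0.18 ± 0.03 with the term (adjusted p 1.9e-04) and 0.18 ± 0.13 without it (adjusted p 0.96). Without Tfam+/- replicate 1 the latter was 0.07 and without Zbp1-/- replicate 1 0.09, whereas without Tfam+/- replicate 2 it was 0.29 and without Zbp1-/- replicate 2 0.27. The core subunit gene Uqcrc1 went from 2220 and 2317 in WT to 3262 and 2419, 2449 and 2987, and 2590 and 2616 in the other genotypes, with WT below all of them. Its difference was 0.13 ± 0.03 (adjusted p 0.0017 with the term), and without the term it ran from 0.02 (Tfam+/- replicate 1 left out) to 0.23 (Tfam+/- replicate 2 left out). The other core gene, Uqcrc2, rose by 0.08 ± 0.02 (adjusted p 0.024 with the term, and 0.02 to 0.13 in the primary fit on dropping either Zbp1-/- library), whereas Uqcrfs1, the Rieske iron-sulfur protein, was at 0.06 ± 0.03 (adjusted p 0.19). Of the small subunits around this core, Uqcrb (0.12), Uqcr10 (0.11) and Uqcr11 (0.11) were called higher with the term, and Uqcrq (0.08, adjusted p 0.10) and the hinge gene Uqcrh (0.04, adjusted p 0.33) were not. Uqcr10 had 819.4 and 894.4, 1332 and 885.5, 841.6 and 1306, and 989.5 and 947.9 in the order of genotypes above, so that the distance between its replicates in Tfam+/- and in Zbp1-/- was far larger than any distance between genotypes outside the shifted libraries.

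In complex IV the 5 genes called higher with the term were Cox5b (0.16), Cox5a (0.12), Cox7b (0.12), Cox8a (0.12) and Cox7a2 (0.09), all small subunits that surround the catalytic core. Cox5b had normalized counts of 1075 and 1076 (WT), 1439 and 1154 (Tfam+/-), 1233 and 1369 (Zbp1-/-) and 1337 and 1357 (Tfam+/-Zbp1-/-). WT was lowest and the remaining 6 libraries overlapped. Cox5a had 1425 and 1449, 1617 and 1553, 1372 and 1414, and 1553 and 1439 in the same order, which put 3 of the 4 libraries with 1 Tfam allele above the rest (adjusted p 0.0065 with the term). Cox4i1, the main form of a regulatory subunit, and Cox6c were not called, at 0.03 ± 0.02 and 0.05 ± 0.03 (adjusted p 0.37 and 0.19). Of the 2 tested complex IV members below 0, Cox7a2l was at -0.05 ± 0.02 and Cox6b2 at -0.28 ± 0.11 (adjusted p 0.10 and 0.061 with the term).

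In complex V 4 of the 5 head subunits were called higher with the term, Atp5e being the exception. Atp5b had normalized counts of 17084 and 17321 (WT), 22551 and 18262 (Tfam+/-), 16739 and 19831 (Zbp1-/-) and 18224 and 18216 (Tfam+/-Zbp1-/-). Every Tfam+/- and Tfam+/-Zbp1-/- library was above WT, and Zbp1-/- replicate 2 above all but 1 of them, with an average difference of 0.12 ± 0.02 (adjusted p 9.7e-06 with the term, 1 without). Dropping Tfam+/- replicate 1 from the primary fit gave 0.04, and dropping its other library 0.20. Atp5c1, the gamma subunit that turns inside the head, stood at 3590 and 3641, 3477 and 3839, 3392 and 3382, and 4023 and 4105 in the same order. Both Tfam+/-Zbp1-/- libraries were the highest and both Zbp1-/- libraries the lowest, and the average difference was 0.14 ± 0.02 (adjusted p 2.5e-04). Atp5a1 had 10404 and 10101, 11877 and 10474, 10060 and 11732, and 11377 and 11685, with a difference of 0.10 ± 0.02 (adjusted p 1.9e-04 with the term) that ran in the primary fit from 0.05 to 0.16 on dropping Zbp1-/- replicate 1 or its other library. The other members called higher were Atp5d (0.09), Atp5g3 (0.09), Atp5o (0.08), Atp5f1 (0.07) and Atp5l (0.07). Atp5o and Atp5f1 encode parts of the stalk that holds the head still, Atp5g3 the rotating ring, and Atp5l a small membrane subunit. The remaining 9 members of complex V were not called: 7 lay between 0.00 (Atp5k) and 0.08 (Atp5g1 and Atp5mpl), Atp5e, the epsilon subunit, was at -0.02 and Atp5s at 0.01.

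The intervals limit how large a fall could have gone unseen. With the term, the lower 95% bound of the Tfam average was above -0.25 in 41 of 42 members, the exception being Cox6b2 at -0.50. Without it, 28 of 42 bounds were above -0.25 and 40 above -0.5. With the term and the libraries rescaled by trimmed means of M-values this average again gave 20 members called higher (14.0% of all genes), at a median of 0.08, and with rescaling alone it gave 0.

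**Figure D4:**
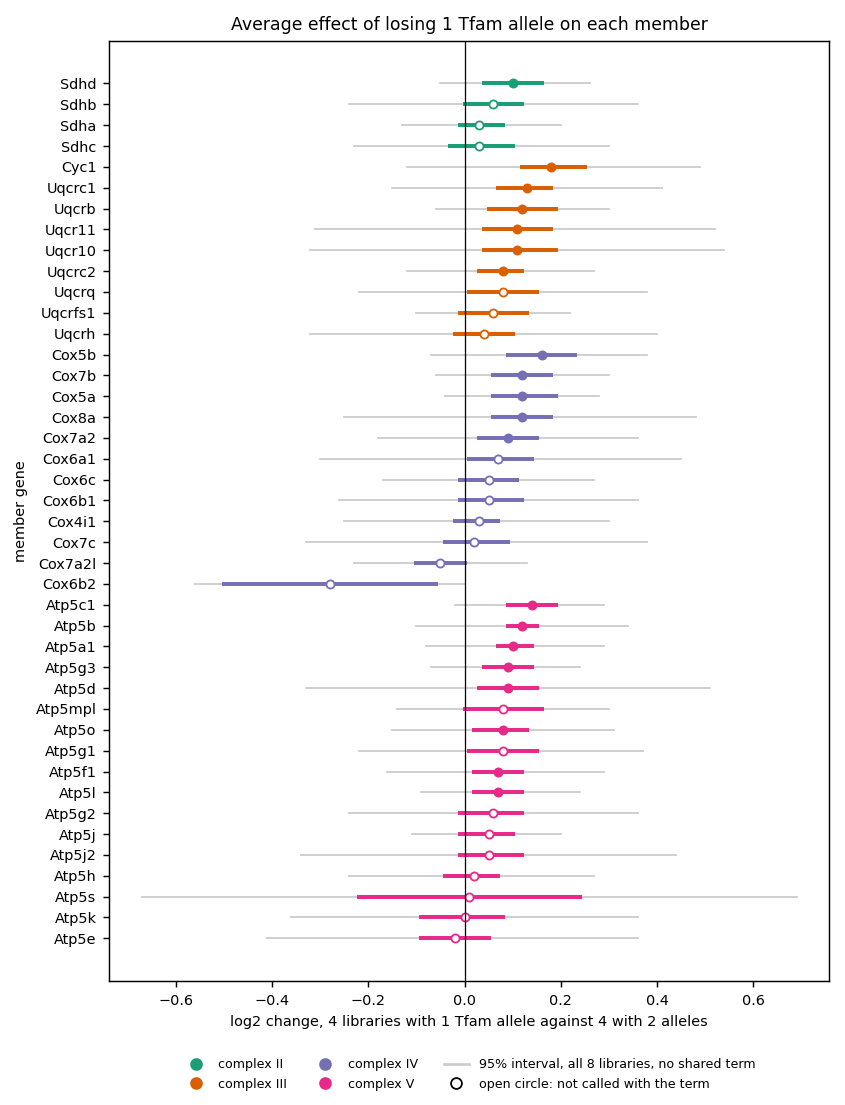
Average log2 difference between the 4 libraries with 1 Tfam allele and the 4 with both alleles for each tested member, with 95% intervals from the fit with the shift term (coloured) and without it (grey); filled points are called with the term. Of 42 points 38 are above 0 and the 20 filled ones all lie to the right, from 0.07 to 0.18.

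Split by Zbp1 state, 2 members were called higher against WT and 19 against Zbp1-/- once the shift term was in. In Tfam+/- against WT the primary fit gave a median of 0.18 against -0.01 for all genes, with 36 of 42 above 0, 0 called and 1 at an unadjusted p under 0.05 (0.731% of all genes called). With the term the median was 0.04, and 2 members were called higher (7.39% of all genes), Uqcrc1 (0.13 ± 0.04, adjusted p 0.047) and Atp5b (0.10 ± 0.02, adjusted p 0.0070). In Tfam+/-Zbp1-/- against Zbp1-/- the primary fit had a median of -0.02 against 0.02, with 0 called and 4 at an unadjusted p under 0.05 (0.415% of all genes called). With the term the median was 0.13 against 0.01 for all genes. In that fit 19 members were called higher (12.8% of all genes) and 1, Cox6b2, lower (11.0%). Cyc1 (0.30 ± 0.05), Atp5c1 (0.23 ± 0.04), Uqcrc2 (0.20 ± 0.04) and Cox6c (0.20) had the largest rises.

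Whether the Tfam effect differed between the Zbp1 states was tested directly by the interaction. With the shift term its estimate rests on Tfam+/- replicate 2 and Zbp1-/- replicate 1, beside both WT and both Tfam+/-Zbp1-/- libraries. In that fit Tfam+/- and Zbp1-/- thus enter the interaction without a replicate. The primary fit called 0 members, 2 had an unadjusted p under 0.05, and 0.663% of all genes were called. With the term 8 members were above 0 and called (8.46% of all genes): Cox7c (0.32), Cox6c (0.30), Atp5j2 (0.26), Uqcrc2 (0.25), Atp5g2 (0.24), Cyc1 (0.23), Atp5a1 (0.17) and Atp5c1 (0.17). After rescaling as well, Cyc1 (adjusted p 0.054) and Atp5c1 (adjusted p 0.056) were no longer called. Cox6b2 was the only one called below 0, at -1.26 (8.43% of all genes). Cox7c, a small subunit of complex IV, had normalized counts of 1548 and 1487 (WT), 1972 and 1365 (Tfam+/-), 1491 and 2059 (Zbp1-/-) and 1642 and 1711 (Tfam+/-Zbp1-/-). Outside the shifted libraries, Tfam+/- was its lowest genotype and Tfam+/-Zbp1-/- its highest. Uqcrc2 stood at 2702 and 2675, 2273 and 2597, 2511 and 2182, and 2837 and 2913 in the same order, with Tfam+/-Zbp1-/- above all others. Atp5d, at -0.64 without the term, was at -0.04 with it, and Atp5s went from 1.27 to 0.36, neither being called.

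Among the comparisons for Zbp1 loss the primary fit called 1 member, Cox6b2. It was called in Zbp1-/- against WT and in the average, but not in Tfam+/-Zbp1-/- against Tfam+/-. The direction of most other members depended on the scaling. Cox6b2 lies on chromosome 7 (4751792 to 4753094, minus strand, GRCm38) and encodes the testis form of subunit 6b, which sits on the face of complex IV toward the intermembrane space. Its normalized counts were 55.2 and 59.6 (WT), 83.8 and 75.04 (Tfam+/-), 157.3 and 191.6 (Zbp1-/-) and 88.9 and 81.7 (Tfam+/-Zbp1-/-). Both Zbp1-/- libraries were well above the other 6, WT was lowest, and the pairs of Tfam+/- and Tfam+/-Zbp1-/- overlapped. In Zbp1-/- against WT it rose by 1.58 ± 0.17 (2.99-fold, adjusted p 0.018), the only member called, while 1.06% of all genes were called and 0.897% were called higher. Averaged over both Tfam states it rose by 0.84 ± 0.12 (adjusted p 0.011), again alone among members, where 6.96% of all genes were called and 5.13% called higher.

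Without Zbp1, the values of Cox6b2 lay lower where 1 Tfam allele was missing than where both were present. Tfam+/-Zbp1-/- stood at 0.10 ± 0.17 against Tfam+/- (adjusted p 0.74) and at -1.02 ± 0.17 against Zbp1-/- (adjusted p 0.078), and the interaction was -1.48 ± 0.23 (adjusted p 0.059). With the shift term the last of these were -0.91 (adjusted p 5.2e-04) and -1.26 (adjusted p 0.0020), both past the threshold. As a share of the Cox6b signal per kb, Cox6b2 went from 2.97% and 3.36% in WT to 7.71% and 7.06% in Zbp1-/-, with 3.33% to 4.58% in the other 4 libraries. The ubiquitous Cox6b1 had 1904 and 1813, 2568 and 1941, 1988 and 2665, and 1954 and 2165, and its highest values were those of the shifted libraries.

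The call in Zbp1-/- against WT was lost without either WT library (adjusted p 0.22 and 0.19), without Zbp1-/- replicate 2 (1.44, adjusted p 0.085), without either Tfam+/-Zbp1-/- library (adjusted p 0.10), and when only these 2 genotypes were fitted (adjusted p 0.12), at differences of 1.44 to 1.63. The averaged call was lost without either WT or either Tfam+/-Zbp1-/- library, at 0.81 to 0.87 (adjusted p 0.065 to 0.081). Neural crest and Schwann markers, of which 3 of 4 were tested, summed to 246 and 226 in Zbp1-/- against 93.2 to 163 in the other 6 libraries. Fibroblast markers summed to 468021 and 550400 in Zbp1-/-, the highest of the 8 libraries, and all 9 were above 0 in Zbp1-/- against WT (median 0.48 against 0.11 for all genes, 1 called higher). The part of either list in the Cox6b2 result was not tested, nor was that of the lower leukocyte sums.

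Cox4i2, on chromosome 2 (152753916 to 152765039), was too low for testing and was looked at after its values were seen. Its normalized counts were 4.90 and 6.52 (WT), 5.50 and 4.97 (Tfam+/-), 12.1 and 20.2 (Zbp1-/-) and 11.4 and 9.82 (Tfam+/-Zbp1-/-). All 4 libraries without Zbp1 were above the 4 with it. In a fit without the minimum on the mean, the average effect of Zbp1 loss was 1.11 ± 0.24 and did not pass (adjusted p 0.055). Cox4i1, which holds nearly all transcript signal of this subunit, had 3644 and 3608, 4895 and 3792, 3966 and 5127, and 3886 and 3997.

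**Figure D5:**
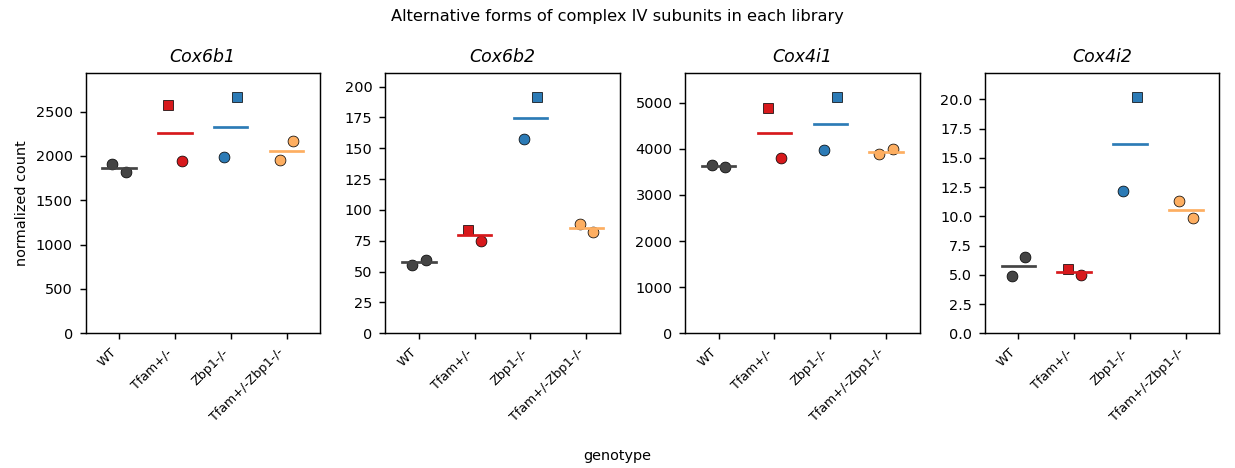
Normalized counts (axes from 0) of the main forms Cox6b1 and Cox4i1 and the minor forms Cox6b2 and Cox4i2 by genotype; points are libraries, squares mark Tfam+/- replicate 1 and Zbp1-/- replicate 2, and lines are means. Cox6b2 reaches 157.3 and 191.6 in Zbp1-/- against 55.2 to 88.9 elsewhere, and Cox4i2 is higher in all 4 libraries without Zbp1.

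For the remaining members the reference level matters, because all genes together, as scaled by the authors, had a median of 0.11 in Zbp1-/- against WT and 0.12 in the Zbp1 average, and of 0.00 in both once trimmed means of M-values had been used to rescale the libraries. The members' medians were 0.21 in Zbp1-/- against WT (0.03 with the shift term) and 0.09 in the average, hence below all genes in the average and, with the term, in both. With the term and the authors' scaling, 12 members were called higher in Zbp1-/- against WT (28.5% of all genes) and 1, Uqcrc2, lower (7.01%). After rescaling as well, 2 were called higher (12.9%) and 15 lower (15.5%). In the average the same step turned 27 called higher (46.7% of all genes) and 1 lower (10.9%) into 3 higher (21.1%) and 12 lower (23.0%).

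Under both scalings Cox6b2, Atp5e and Cox8a were called higher in the Zbp1 average with the term. Atp5e, singled out after its values were seen, had normalized counts of 919.7 and 883.3 (WT), 1275 and 852.6 (Tfam+/-), 1142 and 1618 (Zbp1-/-) and 1130 and 1146 (Tfam+/-Zbp1-/-). All 4 libraries without Zbp1 were above both WT libraries and the unshifted Tfam+/- library. Its difference was 0.36 ± 0.03 (adjusted p 3.5e-08), 0.24 ± 0.03 after rescaling (adjusted p 5.8e-06), and 0.36 ± 0.16 without the term (adjusted p 0.24). Cox8a, a small membrane subunit of complex IV, had 1594 and 1685, 2585 and 1757, 1929 and 2655, and 2008 and 2102, with 0.21 ± 0.03 before and 0.09 ± 0.03 after rescaling (adjusted p 8.4e-06 and 0.015, with the term). Cox5a was the lowest member in the average, at -0.06 ± 0.03 with the term (adjusted p 0.081), and was called lower after rescaling, at -0.18 (adjusted p 1.1e-04). Atp5b (-0.04 and -0.15) and the b subunit gene Atp5f1 (-0.04 and -0.15) were also below 0 under both scalings, and Uqcrfs1 was at -0.04 and -0.15.

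In Tfam+/-Zbp1-/- against Tfam+/- the members' median was 0.02 against 0.14 for all genes, with 0 called and 0 at an unadjusted p under 0.05 in the primary fit, where 5.64% of all genes were called. With the term the median was 0.13 against 0.13, and 24 members were called higher (35.4% of all genes). After rescaling as well, 4 were called higher, Atp5e (0.28), Cox7c, Cox6c and Atp5g2 (16.3% of all genes), and 3 lower, Atp5b, Cox5a and Atp5f1 (17.3%).

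Cells with both changes were compared with WT last. In Tfam+/-Zbp1-/- against WT, which involves neither shifted library, all 42 members were above 0 with the authors' scaling, at a median of 0.16 against 0.12 for all genes and a range from 0.02 (Uqcrfs1) to 0.56 (Cox6b2), whereas 32 of 42 were above 0 after rescaling, at a median of 0.05 against 0.01. The primary fit called 0 members, 3 had an unadjusted p under 0.05, and 1.38% of all genes were called. With the term 35 members were called higher (35.3% of all genes), and after rescaling as well 8 (12.7%). Those 8 were Cox6b2 (0.45), Atp5e (0.22), Atp5d (0.12), Cox8a, Cox5b, Uqcr11, Cox6a1 and Atp5l. No member was called lower in these fits.

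Genes that build or supply the complexes were counted beside the members. Of 37 assembly factors and carriers 36 were tested, and in the Tfam average 0 were called in the primary fit, while with the term 2 were higher and 1 lower (13.7% of all genes higher). The higher ones were Cycs, which encodes cytochrome c (0.23 ± 0.03, adjusted p 1.3e-06), and Sco2, a copper chaperone of complex IV (0.20, adjusted p 0.039), and Coa5 was lower (-0.09, adjusted p 0.024). In the Zbp1 average the primary fit called 2 of the 36 higher, a share close to the 5.13% of all genes. They were Cox18 (0.57 ± 0.09, adjusted p 0.017), which inserts a catalytic subunit of complex IV, and Cox16 (0.41 ± 0.09, adjusted p 0.049), another assembly factor of that complex. All genes had a median of 0.12 in this average with the authors' scaling, and rescaled values of Cox18 and Cox16 are not given here. Cox18 had normalized counts of 179.2 and 162 (WT), 182.3 and 170.9 (Tfam+/-), 244.5 and 218.8 (Zbp1-/-) and 283 and 294.5 (Tfam+/-Zbp1-/-), with all 4 libraries without Zbp1 above the rest.

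Of 12 tested nuclear regulators of mitochondrial genes 0 were called in either average in the primary fit, and with the term Tfam itself was the 1 called in the Tfam average (-0.73 ± 0.05, adjusted p 4.6e-09). Nrf1, whose protein binds the NRF1 core printed for Cox6a1 and Atp5g2, was at 0.09 ± 0.05 in the Tfam average (adjusted p 0.21 with the term), and Gabpa, whose protein binds ETS words, at -0.06 ± 0.03 (adjusted p 0.15). Gabpa had 1743 and 1803, 1010 and 1685, 1953 and 1074, and 1845 and 1770, its lowest values being in the shifted libraries. Gabpa and the member Atp5j overlap on opposite strands, as do Atp5d and Cbarp, Cox4i1 and Emc8, Uqcrc2 and Pdzd9, Atp5a1 and Haus1, Atp5f1 and Wdr77, and Uqcrb and Gm10767. Further genes on the opposite strand overlap Atp5o (D430001F17Rik and Gm15976), Cox5a (Gm26631), Atp5l (Gm30934), Atp5f1 (Gm42890) and the untested Cox6a2 (Itgad). The use of strand in counting was not given by the sources at hand, so all these pairs are uncertain.

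Beside the members, complex I subunits (37 of 38 tested) had a Tfam average median of 0.05, with 6 called higher and 0 lower with the term (13.7% and 11.9% of all genes), and mitochondrial ribosomal proteins (78 tested) a median of 0.09, with 17 higher and 0 lower. The members' median was 0.07, with 20 of 42. No test was made of these lists against each other. In the Zbp1 average the medians were 0.11, 0.07 and 0.09, and after rescaling 0.00, -0.04 and -0.02.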

How the data were processed

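The deposited table gives the authors' normalized counts per gene, a signal that is never negative. Per the series' design text and the submitters' processing notes, reads were aligned with STAR 2.6.1a to mm10 with RefSeq genes, and Salmon is listed too. How reads were counted, with or without strand, and how counts were scaled is not stated there. Only 22.2% to 34.9% of values of up to 20 reads lay within 0.01 of whole reads, so whole reads were not recovered and no count model was run.

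Genes with a mean of at least 10 were tested on log2(normalized count + 1) with limma 3.58.1 in R 4.3.3 (mean-variance trend, two-sided, 4 residual degrees of freedom), with Benjamini-Hochberg adjustment over 13267 genes. Further fits added a term shared by Tfam+/- replicate 1 and Zbp1-/- replicate 2 (3 residual degrees of freedom) and rescaled the libraries by trimmed means of M-values; the 2 together were added after seeing the data. The named members are the fixed core subunits, the families of alternative forms, up to 5 called members per comparison and the largest rise and fall in each; those called only with the term or after rescaling are named beyond that rule, after their values were seen. The members and lists were chosen with earlier results of these data known. Transcript lengths and GC content came from GENCODE M21. Only the primary fit of the Tfam average was tried on simulated data, which held no shared shift. The fits with the shift term or with rescaling were not tried in this way. Library totals were 16752835 to 18303036 normalized counts, and counting error could not be worked out from them.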

Additional observations from a re-analysis of the deposited data

How the results depend on the processing

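With only 2 libraries a genotype, most calls rest on how the shift of Tfam+/- replicate 1 and Zbp1-/- replicate 2 is handled. Members called with the shared term, with the term and rescaling, and in the 6 other libraries were 2, 2 and 4 in Tfam+/- against WT, 13, 17 and 14 in Zbp1-/- against WT, 35, 8 and 35 in Tfam+/-Zbp1-/- against WT, 24, 7 and 24 against Tfam+/-, 20, 20 and 20 against Zbp1-/-, 9, 7 and 9 for the interaction, 20, 20 and 15 for the Tfam average, and 28, 15 and 25 for the Zbp1 average. Of all genes these settings called 15.6%, 15.6% and 15.4% in Tfam+/- against WT, and 35.6%, 28.4% and 34.3% in Zbp1-/- against WT. In Tfam+/-Zbp1-/- the shares were 42.5%, 26.5% and 44.8% against WT, 45.6%, 33.6% and 43.6% against Tfam+/-, and 23.8%, 23.8% and 23.4% against Zbp1-/-. The interaction had 16.9%, 16.7% and 19.1%, the Tfam average 25.6%, 25.7% and 21.6%, and the Zbp1 average 57.5%, 44.1% and 51.2%. Member medians under these 3 settings were 0.03, -0.08 and 0.05 in Zbp1-/- against WT and 0.08 in each for the interaction. With the term and in the 6 other libraries, the estimates for the interaction and for Tfam+/-Zbp1-/- against WT are the same by construction. Their match between those settings is therefore no check. Fitting only the genotypes compared gave 0 in Zbp1-/- against WT (0.00754% of all genes) and 35 in Tfam+/-Zbp1-/- against WT (44.7% of all genes). A prior with no trend gave 1 for the interaction (0.671% of all genes).

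Replicate numbers did not pair the libraries (correlations of replicate differences from -0.70 to 0.06). With a replicate block 0 members were called in Zbp1-/- against WT (0.00754% of all genes), Cox6b2 standing at 1.58 (adjusted p 0.096). The block changed no other call.

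Leaving out 1 library at a time gave 0 to 1 called members in Zbp1-/- against WT and in the Zbp1 average. Medians ran from 0.05 to 0.37 in Tfam+/- against WT, 0.05 to 0.34 in Zbp1-/- against WT, 0.14 to 0.18 in Tfam+/-Zbp1-/- against WT, -0.13 to 0.13 in Tfam+/-Zbp1-/- against Tfam+/-, -0.18 to 0.12 in Tfam+/-Zbp1-/- against Zbp1-/-, -0.38 to -0.02 for the interaction, 0.00 to 0.14 for the Tfam average and 0.02 to 0.20 for the Zbp1 average. Ranges of named members that crossed 0 were -1.27 to 0.05 and -0.01 to 1.30 for Atp5s in Zbp1-/- against WT and Tfam+/-Zbp1-/- against Zbp1-/-, -0.02 to 0.07 for Uqcrfs1 in Tfam+/-Zbp1-/- against WT, -0.52 to 0.17 for Atp5d in Tfam+/-Zbp1-/- against Tfam+/-, and, for the Tfam average, -0.05 to 0.17 for Sdhb, -0.05 to 0.12 for Sdhc, -0.07 to 0.12 for Cox4i1 and -0.02 to 0.12 for Cox6c. Without both shifted libraries Atp5s was at 0.05 and -0.01 in its 2 comparisons. Uqcrfs1 was at -0.09 after rescaling, with or without the term. Atp5d was at 0.13 with the term, 0.01 with the term and rescaling, and 0.17 in the 6 libraries. Pseudocounts of 0.1 and 5, no filter and a mean of at least 50 moved no result across the threshold or 0. The cause of the shift was not tested.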
